A study of Rattus norvegicus with 36 samples.

Results

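The glycolytic enzymes described here are the products of Hk1, Hk2, Pfkp, Pfkl, Aldoa, Gapdh, Pgk1, Eno1, Pkm and Ldha, and their transcripts were measured in whole kidney of rats with ischemic or toxic acute renal failure. The 10 genes were chosen by symbol, among 6444 gene symbols on the array, and 8 of them had a probe named by the array annotation. Eno1 and Ldha had 2 probes each, so the genes were covered by 10 of 9911 probes. Pfkp and Aldoa were not analysed here.

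Glycolysis breaks glucose down to pyruvate in the cytosol and yields ATP without oxygen. Hexokinases and phosphofructokinase commit glucose to the pathway, the enzymes from aldolase to pyruvate kinase recover ATP, and lactate dehydrogenase turns pyruvate into lactate and regenerates NAD. In the kidney the proximal tubule burns mainly fatty acids and lactate and makes glucose, whereas distal segments and the medulla rely more on glycolysis. Several of these genes are known targets of the hypoxia-inducible factors (HIF).

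The study set ischemic against nephrotoxic injury at early times in male rats of 6 to 8 weeks, 31 animals in 9 groups on 36 CodeLink arrays. The ischemic groups had 40 min of ischemia of both kidneys and then 2 h (4 rats) or 8 h (3 rats) of reperfusion, and 3 rats examined at 2 h were also given alpha melanocyte stimulating hormone (αMSH, 50 µg a rat, intravenous). Mercuric chloride (HgCl2, 4 mg/kg, subcutaneous) acted for 2 h in 3 rats and for 8 h in 3 others. Cisplatin (20 mg/kg, intraperitoneal) acted for 2 h in 3 rats. The controls were 5 normal rats, 3 rats with 40 min of sham surgery examined at 8 h, and 4 volume-depleted rats given furosemide (20 mg/kg, intraperitoneal, at 0 and 8 h) with a sodium-deficient diet for 24 h.

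All RNA came from minced kidney and held every cell type of the organ, so that fewer cells of a type and less RNA per cell cannot be told apart. A level is the probe's intensity divided by the median of its array, and a change is the difference in log2 level from the normal rats of the same array lot. A gene was called changed at an adjusted p under 0.05 (limma across all probes, Benjamini-Hochberg). The values of sham rat 3 lay 2 lines out of step with the probe names and were moved back. Ischemia 8 h rat 3 stood apart from the other rats of its group in several genes, and the changes that rest on it are given without it as well. Summed over 14 proximal tubule markers, its level was 491 times the array median, against 209 and 248 in the other ischemia 8 h rats and 340 to 496 in the normal rats.

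The upstream sequences of the 3 genes with the largest changes are shown first, because HIF binds a short core that can be looked for in them. The 250 bases before the transcription start were read from RefSeq windows of the rat build GRCr8, which were given for 7 of the 8 genes, Pgk1 being the exception. Capitals mark ACGTG or GCGTG on either strand (CACGT or CACGC where the match lies on the opposite strand). The Ldha window is chr1:106507842-106508091 on the plus strand, the Pkm window is chr8:68953385-68953634 on the plus strand, and the Hk2 window is chr4:116841276-116841525 on the minus strand. All 3 are printed 5′ to 3′ in the direction of the gene.
Ldha: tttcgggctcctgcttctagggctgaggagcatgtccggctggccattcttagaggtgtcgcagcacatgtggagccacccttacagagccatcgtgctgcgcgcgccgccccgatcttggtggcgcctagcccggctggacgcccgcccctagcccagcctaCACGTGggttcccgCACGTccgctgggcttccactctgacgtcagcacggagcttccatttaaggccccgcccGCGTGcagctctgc
Pkm: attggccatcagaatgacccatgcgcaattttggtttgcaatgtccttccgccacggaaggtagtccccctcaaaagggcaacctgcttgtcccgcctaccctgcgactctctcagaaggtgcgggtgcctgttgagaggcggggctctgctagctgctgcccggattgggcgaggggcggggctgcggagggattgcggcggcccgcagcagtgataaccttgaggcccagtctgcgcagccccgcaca
Hk2: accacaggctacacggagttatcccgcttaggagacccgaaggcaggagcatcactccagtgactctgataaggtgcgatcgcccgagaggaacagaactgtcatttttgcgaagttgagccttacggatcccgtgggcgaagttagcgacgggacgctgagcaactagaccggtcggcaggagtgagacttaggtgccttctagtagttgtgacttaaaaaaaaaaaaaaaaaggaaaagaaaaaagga

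The Ldha window held 4 matches, 3 of ACGTG and 1 of GCGTG. The matches starting at -87 and -86 are the opposite strands of the same CACGTG and overlap, and the others start at -73 and -14 from the first transcribed base. The Pkm and Hk2 windows held none. Among the other genes Gapdh had 3 matches, Pfkl 2, each of the 2 Eno1 windows 1, and the 2 Hk1 windows 0 and 1. Over all 33469 windows of the same length 36.7% held at least 1 match (16.6% of windows held ACGTG and 25.9% held GCGTG) and 2.4% held 4 or more. Such matches describe letters in these windows and no binding.

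Across the groups, the glycolytic genes changed mainly 8 h after ischemia. At that time 5 of the 8 genes were higher and 1 was lower than in normal kidney, where 41.6% of all 9489 probes tested were called (20.8% higher and 20.8% lower). The median change over the 8 genes was 0.55 on the log2 scale, beside 0.01 over all probes. At 2 h of ischemia 1 of 8 was higher (14.7% of all probes called, 7.35% higher and 7.36% lower), and with αMSH 2 of 8 were higher (13.2%, 6.66% higher and 6.57% lower). After HgCl2 1 of 8 was lower at 2 h (7.68%, 3.07% higher and 4.61% lower) and 1 of 8 at 8 h (10.9%, 5.25% higher and 5.63% lower). No member was called by limma after cisplatin (0.58% of all probes, 0.538% higher and 0.0422% lower), sham surgery (0.348%, 0.295% higher and 0.0527% lower) or volume depletion (0.169%, 0.074% higher and 0.0951% lower). In each of those 3 comparisons 0 of 8 members had an unadjusted p under 0.05, a threshold for which no share over all probes is given here.

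**Figure D1:**
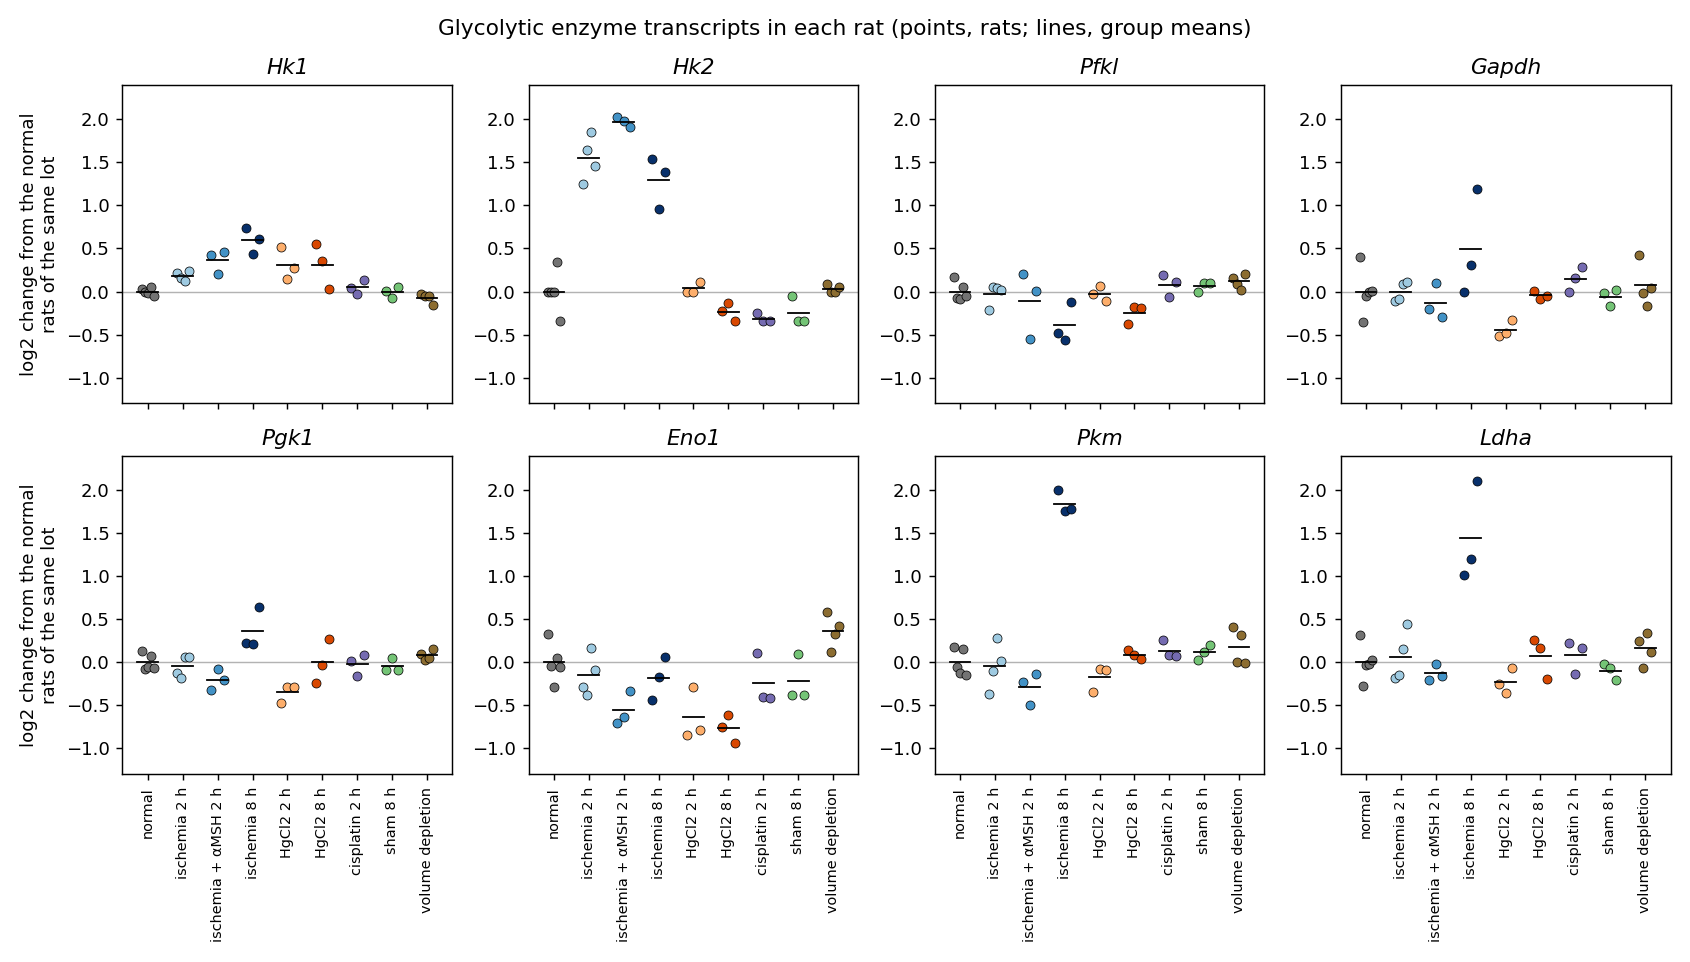
Change of each of the 8 measured glycolytic genes from the normal rats of the same lot (log2, vertical axis) in every rat of the 9 groups (points), with group means as lines. Pkm and Ldha lie more than 1 log2 unit above the normal mean in the 3 ischemia 8 h rats and in no other rat, whereas Hk2 is high in the ischemic groups at both times.

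Hk2 encodes the inducible hexokinase of muscle and fat, which binds mitochondria, and it was the member that rose within 2 h of ischemia. Its probe was dim. Without a floor its intensity was 23.8%, 27.6%, 31.3% and 36.1% of the array median in the 4 ischemia 2 h rats and 37.7%, 39.4% and 40.8% in the 3 rats that also had αMSH. On the 5 ischemia 8 h arrays it was 18.9% to 30.2%. On 6 of the 7 normal arrays it was 6.32% to 9.86%, below the floor of 10% of the median that was applied before the log. The second array of normal rat 11 gave 26.3%, against 8.14% on the first array of the same rat. In the remaining groups it lay between 7.22% and 12.3%, so the ischemic groups and those groups did not overlap. Summed over 5 fibroblast and smooth muscle markers the level was 22.6 to 27.0 times the array median at 2 h of ischemia and 22.9 to 24.0 times with αMSH, against 10.5 to 15.8 times in normal rats, 15.3 to 18.2 times at 8 h of ischemia and 17.2 to 19.0 times at HgCl2 2 h. Of the 5 markers 1 (Tagln, named after its values were seen) was called higher in each ischemic group at 2 h. Over all probes 7.35% were called higher at 2 h of ischemia and 6.66% with αMSH. No marker was at the floor in all rats of a group, and the part of the markers in the change of Hk2 was not tested.

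Because normal rats 1 to 3, the normal rats of that lot, were all at the floor, the changes of the ischemic groups from them are lower bounds. Hk2 was at least 2.93-fold higher at 2 h of ischemia (log2 change 1.55, SE 0.143, adjusted p = 1.817e-08, limma) and at least 3.93-fold higher with αMSH (1.97, SE 0.153, adjusted p = 1.061e-09). At 8 h it was at least 2.46-fold higher (1.30, SE 0.153, adjusted p = 2.345e-07). All 3 calls held when any rat was left out. With the floor at 20% of the median, above 2 of the ischemia 8 h arrays and above every array of the groups without ischemia but the second array of normal rat 11, the log2 changes were 0.55 (adjusted p = 0.0006776), 0.97 (1.26e-06) and 0.31 (0.03119). The change at 8 h was 0.26 below that at 2 h (adjusted p = 0.1662), and the αMSH rats lay 0.42 above the ischemia rats without it (95% interval 0.13 to 0.72, adjusted p = 1.0, 0 of all probes and 0 of 8 members called by limma, 2 of 8 members at an unadjusted p under 0.05), although the rats of those groups did not overlap. No share of all probes at that unadjusted p is given here, so the count of members cannot be set against one.

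**Figure D2:**
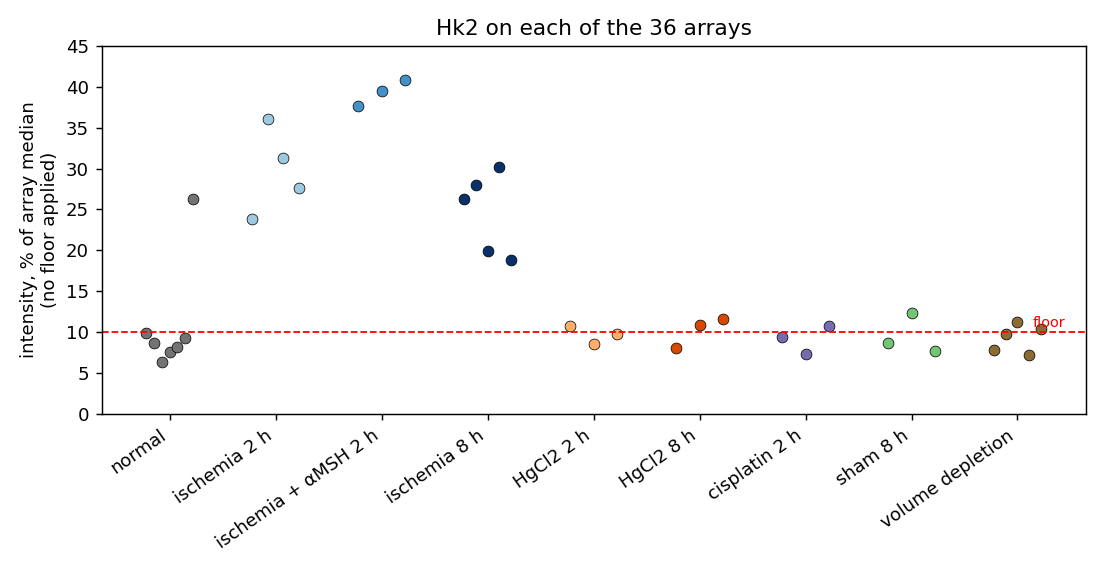
Intensity of the Hk2 probe as a percentage of the array median, with no floor applied (vertical axis), on each of the 36 arrays by group (points), and the floor of 10% (dashed line). All arrays of the 3 ischemic groups lie at 18.9% or above, and of the other arrays only the second array of normal rat 11 (26.3%) reaches that range.

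Hk1, the hexokinase of most tissues, rose less, with its largest change at 8 h of ischemia. Its level was 5.65, 4.58 and 5.19 times the array median in the 3 ischemia 8 h rats and 2.85 to 3.46 times in the normal rats, so the groups did not overlap. The log2 change was 0.59 (SE 0.113, 1.51-fold, adjusted p = 0.000144). The value of ischemia 8 h rat 2 came from its second array alone, since the first held a fill value. With that fill value set to the floor the change turned to -0.32 (adjusted p = 0.5937). At 2 h the change was 0.18 (adjusted p = 0.2896), from 0.12 to 0.24 in the rats against -0.02 to 0.025 in the normal rats of their lot. With αMSH it was 0.37 (adjusted p = 0.03239), a call that was lost when either αMSH rat 1 or rat 3, or any of normal rats 1 to 3, was left out (adjusted p up to 0.124). After HgCl2 Hk1 was 0.31 above normal at both times (adjusted p = 0.09643 at 2 h and 0.1267 at 8 h).

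Pfkl, the liver-type subunit of phosphofructokinase, was the member called lower at 8 h of ischemia. Its level was 0.49, 0.46 and 0.63 times the array median in the 3 rats, below the 0.64 to 0.77 times of the normal rats. The change was -0.39 (SE 0.141, adjusted p = 0.02937). It was no longer called without ischemia 8 h rat 1 (-0.34, adjusted p = 0.08645), ischemia 8 h rat 2 (-0.30, adjusted p = 0.124) or normal rat 1 (-0.31, adjusted p = 0.125). In every other comparison with normal rats Pfkl was between -0.25 and 0.12 and was not called.

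The enzymes between aldolase and pyruvate kinase changed by less than Pkm and Ldha at 8 h of ischemia. Gapdh, glyceraldehyde-3-phosphate dehydrogenase and a gene often used as a reference, had levels of 60.5, 74.9 and 139 times the array median in the ischemia 8 h rats and of 47.5 to 80.3 times in the normal rats. Only ischemia 8 h rat 3 lay above the normal range. The change was 0.50 (adjusted p = 0.05915), and without that rat it was 0.15 (adjusted p = 0.519). It was called without ischemia 8 h rat 1 (0.75, adjusted p = 0.00562), ischemia 8 h rat 2 (0.59, adjusted p = 0.04488) or normal rat 1 (0.70, adjusted p = 0.01306), and with quantile normalization (0.44, adjusted p = 0.000894). Scaling to the 75th percentile (0.47, adjusted p = 0.04719) and no lot term (0.50, adjusted p = 0.02912) also gave a call. So did leaving out ischemia 8 h rat 3, normal rat 1 and array 1 of volume-depleted rat 1 together (0.35, adjusted p = 0.04044). In the other comparisons with normal rats Gapdh lay between -0.44 (HgCl2 2 h, adjusted p = 0.2181) and 0.14 and was not called.

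Pgk1, phosphoglycerate kinase, had levels of 28.5, 28.4 and 37.9 times the array median in the ischemia 8 h rats and 22.4 to 26.7 times in the normal rats, and it was called higher (0.36, SE 0.125, adjusted p = 0.0232). Without ischemia 8 h rat 3 the change was 0.22 (adjusted p = 0.146), and the call was also lost without normal rat 2 (0.32, adjusted p = 0.0826) or normal rat 3 (0.33, adjusted p = 0.0703). At HgCl2 2 h Pgk1 was 0.35 below normal (adjusted p = 0.08838). It was called lower there with quantile normalization (-0.26, adjusted p = 0.03603) and with scaling to the 75th percentile (-0.34, adjusted p = 0.04406).

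Eno1, the general enolase, had no call after ischemia and was lower after HgCl2. At 8 h of ischemia its brighter probe gave -0.19 (adjusted p = 0.4752) and its second probe 0.22 (adjusted p = 0.5899). At 2 h with αMSH they gave -0.56 (adjusted p = 0.0594) and -0.45 (adjusted p = 0.3501). The brighter probe was called there with quantile normalization (adjusted p = 0.04423), 75th percentile scaling (adjusted p = 0.04885) and no lot term (-0.68, adjusted p = 0.008208), and without αMSH rat 3 (-0.67, adjusted p = 0.04952) or normal rat 3 (-0.70, adjusted p = 0.02991). The brighter probe gave 22.1, 32.5 and 23.1 times the array median in the HgCl2 2 h rats, compared with 32.7 to 50.0 times in normal rats 1 to 3 of the same lot. It gave 29.4, 32.4 and 25.8 times in the HgCl2 8 h rats, compared with 51.3 and 47.7 times in normal rats 11 and 12. Eno1 was thus lower in every HgCl2 rat than in each normal rat of its lot. The changes were -0.64 (SE 0.195, adjusted p = 0.044) and -0.77 (SE 0.218, adjusted p = 0.02124). The second Eno1 probe gave -0.51 (adjusted p = 0.3268) and -0.65 (adjusted p = 0.2432), the same direction without a call. The call at 2 h was lost without HgCl2 rat 1 (-0.54, adjusted p = 0.195), HgCl2 rat 3 (-0.57, adjusted p = 0.159), or normal rats 1 (-0.47, adjusted p = 0.234), 2 (-0.66, adjusted p = 0.0871), 11 or 12 (-0.64, adjusted p = 0.0529 each). The call at 8 h was lost without HgCl2 rat 1 (-0.78, adjusted p = 0.0504) or rat 3 (-0.68, adjusted p = 0.0704), or without normal rat 11 (-0.71, adjusted p = 0.171) or 12 (-0.82, adjusted p = 0.102).

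Pkm, the pyruvate kinase of muscle and of proliferating cells, had the largest rise at 8 h of ischemia. Its level was 18.1, 15.3 and 15.5 times the array median in the 3 rats, whereas the 28 rats of the other groups lay between 3.21 and 6.19 times. The change was 1.84 (SE 0.145, 3.59-fold, 95% interval 1.54 to 2.14, adjusted p = 3.576e-10). At 2 h of ischemia Pkm was 3.51, 4.23, 5.51 and 4.56 times the array median and did not stand out from the normal rats at 4.16 to 5.75 times (change -0.04, adjusted p = 0.9193). The annotation used here names the gene and not its splice forms.

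Ldha, the subunit of lactate dehydrogenase that prevails in muscle, rose with Pkm. The brighter of its 2 probes gave 58.4, 66.3 and 125 times the array median in the ischemia 8 h rats and 23.9 to 36.0 times in the normal rats. The other probe gave 38.4, 40.9 and 56.0 times against 16.3 to 19.3 times. Both probes thus put all 3 rats above all normal rats, with rat 3 highest. The changes were 1.44 (SE 0.210, 2.71-fold, adjusted p = 4.954e-06) and 1.32 (SE 0.129, 2.51-fold, adjusted p = 1.073e-08). Without ischemia 8 h rat 3 the brighter probe gave 1.10 and was still called. At 2 h of ischemia it was 0.07 above normal (adjusted p = 0.9093).

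**Figure D3:**
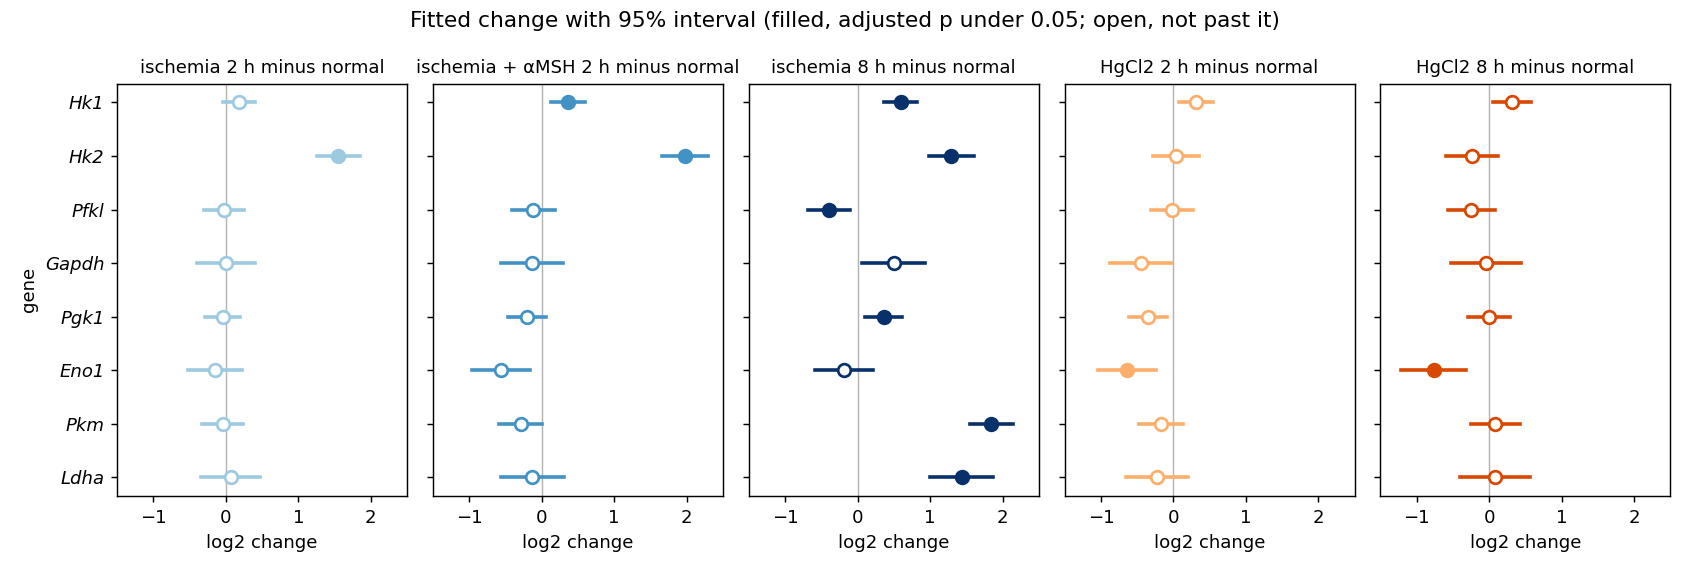
Fitted log2 change (points, horizontal axis) with its 95% interval (lines) for the 8 genes in the ischemic and HgCl2 groups against normal rats, filled where the adjusted p was under 0.05. Hk2 is the gene shared by the 3 ischemic panels, Pkm and Ldha are filled at 8 h of ischemia alone, and Eno1 is the gene filled in the HgCl2 panels.

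The direct comparisons between treated groups separated these patterns further. Between 2 h and 8 h of ischemia 5 of 8 genes were higher and 1 lower at the later time (37.7% of all probes called, 20.5% higher and 17.2% lower). Pkm differed by 1.89 (adjusted p = 1.812e-10), Ldha by 1.37 (adjusted p = 6.003e-06, second probe 1.21), Hk1 by 0.41 (adjusted p = 0.003427) and Pgk1 by 0.40 (adjusted p = 0.008264). Gapdh differed by 0.50 (adjusted p = 0.04748) and Pfkl by -0.37 (adjusted p = 0.03161), although for both the rats of the 2 groups overlapped. Without ischemia 8 h rat 3 the difference was 0.15 in Gapdh (adjusted p = 0.518) and 0.26 in Pgk1 (adjusted p = 0.0764), and neither was called. Pfkl was not called without ischemia 8 h rat 1 (-0.32, adjusted p = 0.0934) or rat 2 (-0.28, adjusted p = 0.136), or without ischemia 2 h rat 2, 3 or 4, and Gapdh was not called without any 1 of the ischemia 2 h rats.

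Ischemia and HgCl2 were compared at matched times. At 8 h 3 of 8 genes were higher in the ischemic rats (11.8% of all probes called, 6.77% higher and 5.05% lower), namely Pkm by 1.76 (adjusted p = 6.101e-06), Ldha by 1.36 (adjusted p = 0.005188, second probe 1.24) and Hk2 by 1.53 (adjusted p = 6.901e-05). At 2 h Hk2 alone of the 8 was higher, by at least 1.52 (adjusted p = 4.03e-08), where 15.1% of all probes were called (8.09% higher and 6.98% lower). The 8 h groups lay in different array lots, so those values set the change of each from its own lot's normal rats against the other. For Hk2 this matters, because normal rat 11 raised the lot 2 normal mean to a log2 level of -2.97 against -3.32 in lot 1. Without the lot term the Hk2 difference at 8 h was 1.19 (adjusted p = 4.163e-06), and with the floor at 20% of the median it was 0.41 and was not called (adjusted p = 0.126). The HgCl2 rats of both times were at or near the floor in Hk2, so no exact fold is given.

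Against the sham rats, which share the time and the surgery, 4 of 8 genes were higher at 8 h of ischemia (22.9% of all probes called, 11.9% higher and 11% lower). They were Pkm (1.73, adjusted p = 3.469e-06), Hk2 (1.55, adjusted p = 2.551e-05), Ldha (1.54, adjusted p = 0.0008634, second probe 1.27) and Hk1 (0.60, adjusted p = 0.01139). Without sham rat 3, whose values had been moved, 4 genes were again called. The Hk2 difference rests on the same lot 2 normal mean, with 2 of the 3 sham rats at the floor. It was 1.20 without the lot term (adjusted p = 1.643e-06) and 0.41 and not called with the floor at 20% of the median (adjusted p = 0.0871). By limma HgCl2 at 8 h had 0 of 8 called against the sham rats (13.1% of all probes, 5.88% higher and 7.2% lower), with 3 of 8 at an unadjusted p under 0.05. Against HgCl2 at 2 h it had 0 called (0.729%, 0.539% higher and 0.19% lower) and 0 at that unadjusted p. The counts at the unadjusted p have no share of all probes to be set against here. Against the volume-depleted rats 4 genes were higher and 2 lower at 8 h of ischemia (44.2% of all probes called, 22.3% higher and 21.8% lower), the lower ones being Eno1 (-0.55, adjusted p = 0.01582) and Pfkl (-0.51, adjusted p = 0.002805). The second Eno1 probe gave -0.25 there, with overlapping groups and no call (adjusted p = 0.4715). The Eno1 call was also lost with the mean of its probes (-0.40, adjusted p = 0.1292), with only the groups compared in the fit (adjusted p = 0.05028) and without ischemia 8 h rat 1 (-0.42, adjusted p = 0.0899). These comparisons share the ischemia 8 h rats.

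Ldhb, Pklr and Pfkm, other isoenzymes of the steps described, were lower than normal at 8 h of ischemia. Of the 19 other glycolytic enzymes listed, 8 were measured and tested, and 3 were called lower and 0 higher at that time, with a median change of -0.05. In either direction that count is no larger a share than the 41.6% of all probes called. By direction 20.8% of all probes were lower and 20.8% higher. Ldhb, the subunit of lactate dehydrogenase that prevails in heart, changed by -1.06, -0.94 and -0.04 in ischemia 8 h rats 1 to 3, a fitted change of -0.68 (adjusted p = 0.007935). Pklr, the pyruvate kinase of liver and red cells, changed by -0.42, -0.46 and -0.80 (fitted -0.56, adjusted p = 0.04042). Pfkm, the muscle-type phosphofructokinase, changed by -1.62, -1.40 and -0.41 (fitted -1.14, adjusted p = 0.0006963). Rat 3 was the least changed in Ldhb and Pfkm and the most changed in Pklr. None of the 3 was called against the sham rats (Ldhb -0.74, Pfkm -0.72 and Pklr -0.77, adjusted p = 0.07635, 0.187 and 0.09212) or against HgCl2 at 8 h (-0.74, -0.62 and -0.25, adjusted p = 0.1169, 0.3374 and 0.7066). Pfkm was -0.53 and -0.52 at HgCl2 2 h and 8 h, without a call. At 2 h of ischemia Bpgm, which makes 2,3-bisphosphoglycerate and is named here after its values were seen, was the 1 gene called of these 8 (0.44, adjusted p = 0.02). Over all probes 14.7% were called at that time, 7.35% higher and 7.36% lower.

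**Figure D4:**
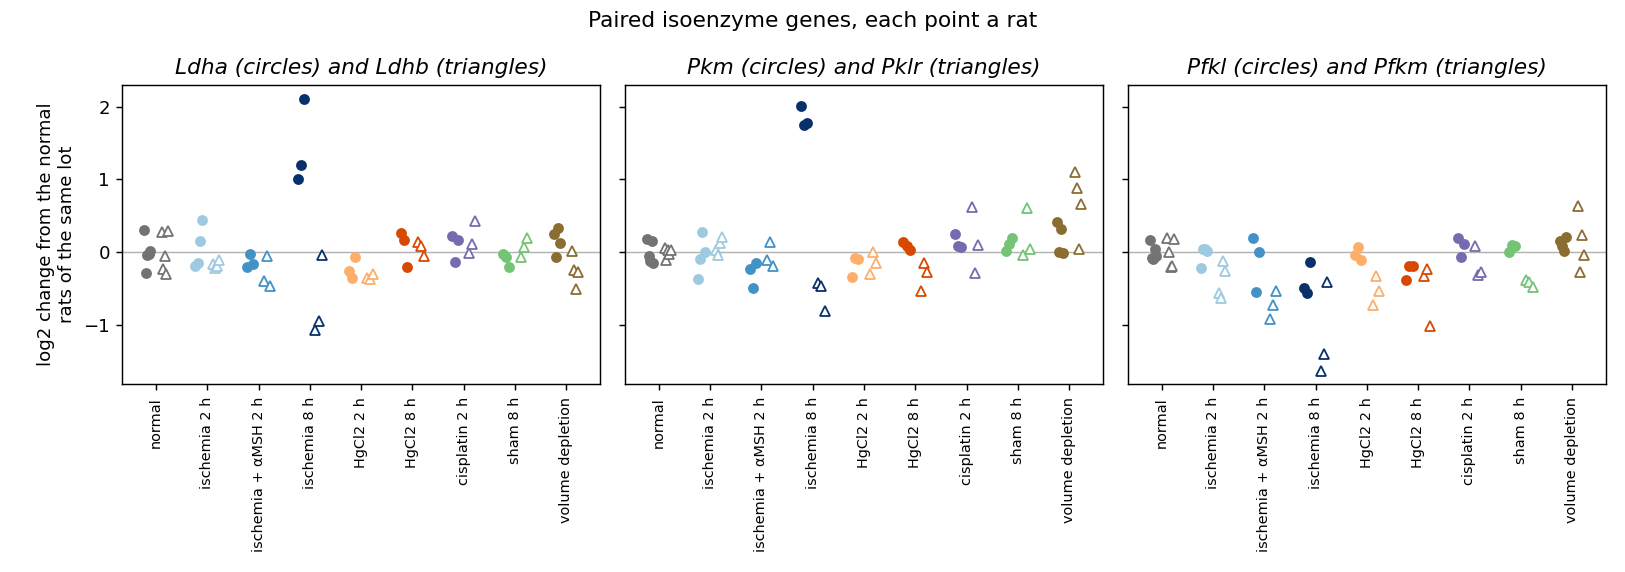
Change from the normal rats of the same lot (log2, vertical axis) of 3 pairs of isoenzyme genes in every rat by group, with members of the described set as circles and their partners as triangles. At 8 h of ischemia Ldha and Pkm lie above 1.0 in all 3 rats while Ldhb and Pklr lie below 0, and both Pfkl and Pfkm lie below 0.

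Of 6 regulators of glycolytic flux tested at 8 h of ischemia 1 was higher and 2 were lower, a share near the 41.6% of all probes in either direction. Tigar, a fructose-2,6-bisphosphatase, rose by 1.54 (adjusted p = 1.965e-09), while the phosphofructokinase-2 genes Pfkfb4 and Pfkfb2 fell by 1.11 and 0.56. Of 10 genes of glucose and lactate transport 3 were higher and 4 lower (20.8% of all probes each way). Slc2a1, the general glucose transporter GLUT1, changed by 1.34, 1.44, 1.25 and 1.78 in the 4 ischemia 2 h rats (fitted 1.45, adjusted p = 9.241e-06) and by 1.20, 0.80 and -0.02 at 8 h (fitted 0.66, adjusted p = 0.01448). It was also 0.80 higher at HgCl2 8 h (adjusted p = 0.02923), where Hk2, Pkm and Ldha were not called. Against the sham rats Slc2a1 was not called at 8 h of ischemia (0.46, adjusted p = 0.339) or of HgCl2 (0.59, adjusted p = 0.06671). Slc16a7, the monocarboxylate transporter MCT2, changed by -2.33, -2.37 and -2.64 at 8 h of ischemia (fitted -2.45, adjusted p = 3.673e-11), and Slc16a3, the lactate exporter MCT4, was 0.62 higher at 2 h (adjusted p = 0.02677) and 0.27 at 8 h (adjusted p = 0.2989).

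The genes of glucose production fell at 8 h of ischemia. All 6 gluconeogenic genes tested were lower (20.8% of all probes were), from -0.54 to -2.11, the last in G6pc1, the glucose-6-phosphatase of liver and kidney. At HgCl2 8 h 4 of 6 were lower (5.63% of all probes), with G6pc1 at -2.94 (adjusted p = 2.392e-07). In the group of pyruvate dehydrogenase and its regulators 2 of 9 were higher and 3 lower at 8 h of ischemia, beside 20.8% of all probes each way. Pdk4, a kinase that inhibits pyruvate dehydrogenase, was 2.06 higher at 2 h and 1.24 at 8 h, and the phosphatase gene Pdp1 was 1.15 and 1.58 higher, whereas Pdk2 was -1.32 at 8 h and Pdk1, a HIF target, was not called (-0.18). Pdk4 was 1.49, 1.75 and 1.95 above normal in the sham rats without a call.

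Of 16 HIF factors and targets outside glycolysis 6 were higher and 2 lower at 8 h of ischemia. In either direction that is near the 41.6% of all probes called (20.8% higher and 20.8% lower). At 2 h 4 were higher and 1 lower, beside 14.7% of all probes (7.35% higher and 7.36% lower). The median change was 0.28 at both times. Edn1, which encodes the vasoconstrictor endothelin-1, rose by 2.35 at 2 h and 2.19 at 8 h, and Adm, which encodes the vasodilator adrenomedullin, by 1.46 and 1.92. P4ha1, a collagen prolyl hydroxylase subunit, was higher at both times and also after HgCl2 (1.09 at 2 h and 1.12 at 8 h). Vegfa, the vascular growth factor, was 0.15 above normal at 2 h and fell by 0.86 at 8 h (adjusted p = 0.0001016). Hif1a was not called at any time, but its 95% intervals were wide. It was 0.77 at 2 h of ischemia (-0.25 to 1.78), 1.02 with αMSH (-0.07 to 2.10) and 0.26 at 8 h (-0.83 to 1.34).

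Most of the leukocyte markers tested were higher at 8 h of ischemia, where Pkm and Ldha were also called higher. Of 12 leukocyte markers tested at 8 h of ischemia 7 were higher and 0 lower, led by S100a9 (5.02), a neutrophil protein, Cd14 (2.00) and the complement genes C1qb (1.83) and C1qc (1.41). Over all probes 20.8% were called higher and 20.8% lower at that time. Ptprc, the pan-leukocyte antigen CD45, named here after its values were seen, was not called (-0.30, adjusted p = 0.178). Summed over the 12 markers the level was 66.4 to 72.9 times the array median in the ischemia 8 h rats, 27.8 to 38.8 times in the normal rats and 31.8 to 57.6 times in the HgCl2 8 h rats, and no marker was at the floor in all rats of any group. HgCl2 8 h rats 1 to 3 had sums of 42.15, 57.63 and 31.75 times, and their Pkm changes lay between 0.035 and 0.137. Ischemia 8 h rat 3, the highest of its group in Ldha, had a sum of 66.5 times. At 2 h of ischemia 2 of 12 were higher and 4 lower (7.35% and 7.36% of all probes), with sums of 30.9 to 36.3 times. Of 14 proximal tubule markers 9 were lower and 0 higher at 8 h of ischemia (20.8% of all probes lower), and 4 were lower at HgCl2 8 h (5.63%). Their summed level in ischemia 8 h rat 3 was 491 times the array median, within the 340 to 496 times of the normal rats. Of 8 markers of the loop, distal tubule and collecting duct 6 were lower and 0 higher at 8 h of ischemia (20.8% of all probes each way). Of 3 red cell markers 1 was higher and 1 lower. The part of these cell types in the changes of the glycolytic genes was not tested.

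Among the members the changes of Pkm, Ldha, Gapdh and Pgk1 went together over the 26 treated rats. Pkm and Ldha had a Pearson r of 0.882, and Gapdh and Pgk1 of 0.794. Between these pairs r was 0.786 (Gapdh and Ldha), 0.767 (Pgk1 and Ldha), 0.699 (Pgk1 and Pkm) and 0.596 (Gapdh and Pkm). Each of these genes had its highest group mean in the 3 ischemia 8 h rats, and r without those rats is not given here. Hk2 had r of between -0.266 and 0.488 with the other members. The 2 Ldha probes had r of 0.963 and the 2 Eno1 probes of 0.88. These values describe rats that share group, array and scaling. The genes outside the pathway whose changes were most like the mean of the members over the same rats were Homer3 (r = 0.935), Bin1 (0.915), Tfg (0.904), Ctsd (0.903) and Cldn7 (0.902). At 8 h of ischemia they were 1.65, 1.30, 0.79, 1.72 and 3.21 above normal, in that order.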

How the data were processed

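Total RNA of 31 rat kidneys was labelled and hybridized to 36 CodeLink arrays, 2 arrays each for 5 rats. The values deposited by the authors are in an unusual unit, of other kind: 2 raised to the power of an intensity divided by the array median. This was read from the values, whose log2 were whole multiples of 0.0001 (within 1e-06) in 100.0% of 343118 values and had array medians of 0.9987 to 1.0. The sources used here do not name the scanner software or the background correction. The log2 of a deposited value was taken as the linear intensity, and the test for intensities was used. A deposited fill value of 0.5 (0.97% of values) was treated as missing. Sham rat 3 correlated with the other arrays at 0.0652 as deposited and at 0.9843 once moved by 2 lines, against 0.9166 to 0.989 in the others.

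Intensities were divided by the array median, floored at 0.1 and brought to log2, and the 2 arrays of a rat were averaged (avearrays). The labels do not give each array's lot. Following an earlier analysis of these data, normal rats 11 and 12, sham, cisplatin and HgCl2 8 h were taken as lot 2 (12 arrays) and the rest as lot 1 (24 arrays). As a check, each treated array was correlated with the difference between the normal rats of both lots, which gave 0.25 to 0.433 in lot 2 and -0.547 to -0.045 in lot 1. All groups were fitted with limma 3.58.1 (R 4.3.3, statmod 1.5.0). The model held the group and the lot and left 21 residual degrees of freedom. A probe was tested with at least 2 rats measured in each group compared and at least 3 rats above the floor. P-values were adjusted over all probes in each of 16 comparisons, and 95% intervals are given. The script was tested on simulated data. Counts use the brightest probe of a gene, and the second probes of Eno1 and Ldha are given beside their main results.

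The members, the other gene lists and the tests were chosen with earlier results of these data known. All members are named; of the other lists, up to 4 called genes with the largest change at 8 h of ischemia or HgCl2 and some fixed isoenzymes, transporters and regulators; and the 5 genes of most similar pattern. Replicate numbers did not pair the rats, which are different animals. Probe names came from the annotation of the array (7229 with 1 symbol, 21 with several, 2661 with none), and symbols were updated with RefSeq of GRCr8.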

Additional observations from a re-analysis of the deposited data

Results flagged for a closer look

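In 3 instances a single rat lay far from the others of its group, in a screen of 30 groups of 4 or 5 rats (10 probes in 3 groups) in which chance gives about 1 in 20. Hk2 in normal rat 11 had a log2 level of -2.62, while the other 4 normal rats lay at the floor of -3.32, and its 2 arrays gave 8.14% and 26.3% of the array median. With the other 4 at the floor any level above it is flagged, so the rate of 1 in 20 does not apply there. The screen also took the normal rats of both lots as 1 group. Hk1 in volume-depleted rat 4 was lowest at 1.60, and Pfkl in ischemia 2 h rat 1 was lowest at -0.75.

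Groups under the same contrast with normal rats differed in 10 instances. Between 8 h and 2 h of ischemia Pkm differed by 1.89, Ldha by 1.37, Gapdh by 0.50, Hk1 by 0.41, Pgk1 by 0.40 and Pfkl by -0.37. Between ischemia and HgCl2 at 8 h Pkm differed by 1.76, Hk2 by 1.53 and Ldha by 1.36, and at 2 h Hk2 differed by at least 1.52.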

How the results depend on the processing

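The calls of Hk2 in all 3 ischemic groups and of Pkm and Ldha at 8 h of ischemia against normal kidney held in all 13 settings with sham rat 3 moved, and whichever rat was left out. Other settings ended calls of Hk1, Pfkl, Gapdh, Pgk1 and Eno1 and, in some comparisons between treated groups, of Hk2 and Ldha (Ldha between ischemia and HgCl2 at 8 h, adjusted p = 0.1213 when only those groups were fitted). Some settings added calls, such as that of Gapdh at 8 h of ischemia against normal. Setting the fill value to the floor reversed Hk1, which was missing on 1 array: -0.32 at 8 h of ischemia against normal, -0.51 against 2 h, -0.30 against sham and -0.25 against volume depletion. The number of the 8 genes called changed by more than 1.5 times as follows, and smaller changes are not listed. With quantile normalization it was 5 for ischemia minus HgCl2 at 8 h, 2 for HgCl2 minus sham and 2 for ischemia minus HgCl2 at 2 h. With the 75th percentile it was 2 for HgCl2 2 h and 2 for ischemia minus HgCl2 at 2 h. Without the lot term it was 2 for HgCl2 2 h, 7 for ischemia 8 h minus sham, 6 for ischemia minus HgCl2 at 8 h and 1 for HgCl2 8 h minus 2 h. With sham rat 3 in the deposited order it was 1 for ischemia with αMSH, 2 for ischemia 8 h, 0 for HgCl2 2 h and 0 for HgCl2 8 h, 1 for ischemia 8 h minus 2 h, 1 for ischemia 8 h minus sham, 1 for HgCl2 8 h minus sham and 2 for ischemia 8 h minus volume depletion. With only the groups compared in the fit it was 1 for ischemia with αMSH, 0 for HgCl2 2 h, 2 for ischemia 8 h minus 2 h and 2 for ischemia minus HgCl2 at 2 h. It was 1 for ischemia with αMSH and 0 for HgCl2 2 h both with the first array of each rat and with the fill value at the floor. With the mean of a gene's probes it was 0 for both HgCl2 times. With 3 doubted samples left out (ischemia 8 h rat 3, normal rat 1, and array 1 of volume-depleted rat 1) it was 0 for HgCl2 2 h, 2 for HgCl2 8 h minus sham and 4 for ischemia minus HgCl2 at 2 h. The cause was not tested. Leaving out 1 rat at a time gave 1 to 2 for ischemia with αMSH, 0 to 1 for HgCl2 2 h, 0 to 1 for HgCl2 8 h, 1 to 2 for ischemia minus HgCl2 at 2 h and 0 to 1 for HgCl2 8 h minus sham. With the replicate number as a block the same number was called in all 16 comparisons (6 at 8 h of ischemia), and same-numbered rats had a median correlation of 0.018.

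Few rats per group limit the precision. Hk2 lay at the floor in the normal rats of lot 1, so its changes from them are bounds, whereas its differences between lots are not. The lots were assumed, and differences between lots rest on 3 and 2 normal rats.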
